A study of Homo sapiens with 11 samples.

Results

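The 8 genes described here are recurrently altered in pancreatic ductal adenocarcinoma: CDKN2A, SMAD4, TGFBR2, ARID1A, RNF43, GNAS, KDM6A and MYC. They were chosen by name, not by signal, from 20037 protein-coding genes. A peak was given to a gene when its summit lay inside the gene span of GRCh38 or within 50 kb on either side, so a window can also hold neighbouring genes. The peaks come from chromatin immunoprecipitation followed by sequencing (ChIP-seq) of CFPAC1 and HPAF2, which are human pancreatic ductal adenocarcinoma cell lines. MYRF, a membrane-tethered transcription factor, was mapped in unmodified CFPAC1 and HPAF2 with an antibody the submitters made. H3K27ac, a histone mark of active promoters and enhancers, was mapped in a genome-edited CFPAC1 clone, made with Cas9 and a MYRF guide (the knockout clone), and in a CFPAC1 control clone. FOS, a subunit of the transcription factor AP-1, was mapped in the control clone. CFPAC1 was grown in IMDM and HPAF2 in RPMI, so line and medium cannot be told apart. Each of these 5 groups had 2 libraries, and cells were fixed with 1% formaldehyde for 10 min. All groups are bulk cultures of cancer lines, and each genotype is 1 clone, so MYRF status and clone cannot be told apart. Peak lists also cannot show whether the MYRF gene was edited. A weaker mark in every cell and a mark in fewer cells cannot be told apart either.

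The 8 genes act in a few connected systems. TGFBR2 is the type II receptor for TGF-beta, and SMAD4 is the partner that carries receptor-activated SMADs to DNA, so the pair forms a growth-restraining route that pancreatic tumours often lose. RNF43 is a membrane ubiquitin ligase that removes Frizzled receptors and so limits WNT signalling. CDKN2A encodes the cyclin-dependent kinase inhibitor p16INK4a and the MDM2 inhibitor ARF from separate first exons, and MYC is a transcription factor that drives growth. ARID1A is a DNA-binding subunit of the SWI/SNF chromatin remodeller, KDM6A removes methyl groups from lysine 27 of histone H3, and GNAS encodes the stimulatory G protein subunit that activates adenylyl cyclase.

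Promoter sequences are shown for a start with no peak at all (SMAD4), for the pair of CDKN2A starts of which 1 was acetylated, and for starts whose promoters hold an AP-1 match with a FOS peak over it in 1 of 2 libraries (GNAS) and without one (KDM6A and the inner start of RNF43). They are from RefSeq on GRCh38.p14, each giving the 250 bases before a start, 5′ to 3′ in the gene's direction. The search covered both strands for CTGGNAC, the type of motif described for MYRF, TGANTCA, the AP-1 motif, and CACGTG, the E-box bound by MYC and its relatives. Matches are in capitals, and no match of one motif overlapped another.
SMAD4, chr18:51029963-51030212, plus strand: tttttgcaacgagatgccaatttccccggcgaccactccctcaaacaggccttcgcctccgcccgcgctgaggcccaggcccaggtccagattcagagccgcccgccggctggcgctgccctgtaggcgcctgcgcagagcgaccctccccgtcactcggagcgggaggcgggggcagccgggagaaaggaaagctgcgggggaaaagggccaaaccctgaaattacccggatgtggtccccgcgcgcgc
CDKN2A distal start, chr9:21995325-21995574, minus strand: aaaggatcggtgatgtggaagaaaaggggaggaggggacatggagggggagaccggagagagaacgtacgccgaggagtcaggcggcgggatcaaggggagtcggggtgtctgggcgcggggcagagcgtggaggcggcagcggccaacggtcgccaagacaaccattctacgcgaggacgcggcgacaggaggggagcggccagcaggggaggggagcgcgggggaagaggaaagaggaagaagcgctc
CDKN2A proximal start, chr9:21974858-21975107, minus strand: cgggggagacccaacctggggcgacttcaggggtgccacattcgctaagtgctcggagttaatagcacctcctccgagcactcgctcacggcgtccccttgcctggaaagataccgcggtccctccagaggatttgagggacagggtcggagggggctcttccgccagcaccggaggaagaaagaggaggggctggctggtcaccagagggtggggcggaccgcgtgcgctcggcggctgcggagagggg
GNAS inner start, chr20:58852466-58852715, plus strand: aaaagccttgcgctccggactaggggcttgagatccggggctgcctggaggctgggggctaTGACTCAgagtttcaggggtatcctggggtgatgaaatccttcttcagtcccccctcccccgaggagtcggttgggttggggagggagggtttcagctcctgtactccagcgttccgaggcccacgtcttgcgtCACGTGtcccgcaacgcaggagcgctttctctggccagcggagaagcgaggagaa
KDM6A, chrX:44872938-44873187, plus strand: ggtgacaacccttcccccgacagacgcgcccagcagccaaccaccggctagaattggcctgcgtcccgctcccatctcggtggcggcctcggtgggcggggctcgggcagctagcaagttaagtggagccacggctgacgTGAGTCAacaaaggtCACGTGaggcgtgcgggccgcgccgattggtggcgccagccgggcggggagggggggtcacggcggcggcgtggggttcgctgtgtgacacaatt
RNF43 inner start, chr17:58402722-58402971, minus strand: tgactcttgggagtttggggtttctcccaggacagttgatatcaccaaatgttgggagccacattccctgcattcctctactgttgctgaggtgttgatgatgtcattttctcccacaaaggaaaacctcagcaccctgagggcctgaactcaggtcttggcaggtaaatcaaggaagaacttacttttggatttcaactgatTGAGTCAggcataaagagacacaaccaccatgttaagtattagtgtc

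Of the 35116 promoters in the same table, each 250 bases before to 50 after a start, 7.71% held TGANTCA, 7.26% held CACGTG and 18.5% held CTGGNAC. The table held 15 promoters for 7 of the 8 genes. Among these, TGANTCA matched in 4 of 15 (1 each of GNAS, KDM6A, RNF43 and TGFBR2), CACGTG in 2 of 15 (GNAS and KDM6A) and CTGGNAC in 5 of 15, both of RNF43 and 3 of GNAS. The CTGGNAC matches lie in promoters that are not printed, apart from one at the inner RNF43 start, which lies after the printed bases. A match is a description and not a site.

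Across the lists, SMAD4 stood alone among the 8 genes in having no peak of any kind, TGFBR2 and RNF43 were the members with MYRF, and 7 of 8 carried both FOS and H3K27ac. A site here means peaks of both replicates that overlap by at least 1 bp. MYRF sites in CFPAC1 lay in 2 of 8 windows, against 16.6% of all genes, and MYRF sites in HPAF2 also lay in 2 of 8 windows, against 16.6%. They were the same 2 genes, so 2 of 8 had MYRF in both lines, against 9.99% of all genes. FOS sites lay in 7 of 8 windows, against 67.7% of all genes. H3K27ac sites lay in 7 of 8 windows in the knockout clone, against 86.1% of all genes, and in 7 of 8 in the control clone, against 86.3%. With 8 genes, these counts are too few to tell the members from genes in general. The 10 lists together held 3 to 6 MYRF peaks per library in these windows, 29 and 36 FOS peaks, 140 and 152 H3K27ac peaks in the knockout clone and 156 and 160 in the control clone.

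**Figure D1:**
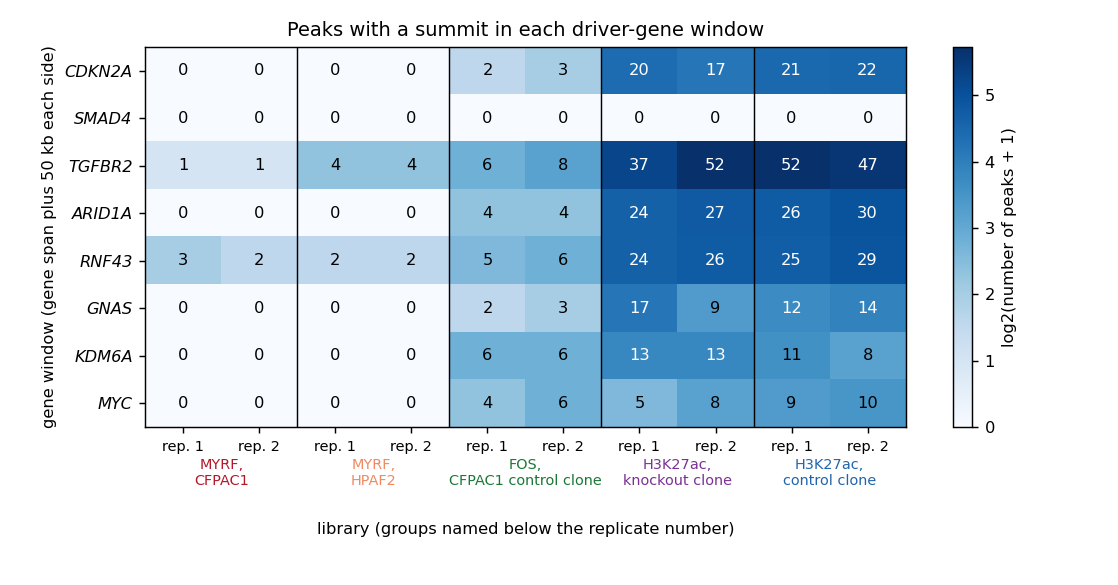
Number of peaks whose summit lay in each driver-gene window (rows) in each of the 10 libraries (columns, replicates 1 and 2 of 5 groups), with darker blue for more peaks on a log2 scale. The SMAD4 row is 0 throughout, MYRF peaks occur in TGFBR2 and RNF43, and TGFBR2 has the most H3K27ac peaks, 37 and 52 in the knockout clone and 52 and 47 in the control clone.

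Whole lists ranged from 3702 to 4743 MYRF peaks, from 29087 to 36349 FOS peaks and from 107586 to 116466 H3K27ac peaks. Without read counts in the lists, the sequencing depth is unknown, and a missing peak is not proof that the protein or mark was absent. The epithelial identity of the clones was checked with 8 marker genes such as KRT19 and EPCAM, and 8 of 8 had H3K27ac within 1 kb of a gene end in both knockout libraries and in both control libraries. Of 8 markers of other cells, 2 had it in both knockout libraries (PECAM1 and COL1A1) and 2 in both control libraries (COL1A1 and CPA1). The leukocyte marker PTPRC, the acinar gene PRSS1 and the islet genes INS and GCG had none in any of the 4 libraries. The share of all genes with H3K27ac within 1 kb of a gene end was not computed. By another measure, an H3K27ac site in the gene span alone, it was 62.0% in the knockout clone and 62.5% in the control clone. The marker counts are therefore descriptions and do not establish identity.

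SMAD4 lay in a long stretch without any peak. Its window held 0 peaks in all 10 lists, which 8.82% of genes share, and 10.2% of genes had no H3K27ac peak in the 4 H3K27ac libraries. The stretch free of H3K27ac ran over chr18:50880203-51194761, a length of 314.6 kb, and held all of SMAD4 and of ELAC1, the gene next to it that encodes a tRNA-processing nuclease. Taken library by library, it measured 315.3 and 314.8 kb in the knockout clone, and 314.6 and 314.8 kb in the control clone, so the borders differed by less than 1 kb between libraries and clones.

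On both sides, the border was at a gene with H3K27ac. On the left, H3K27ac stopped 150.4 and 150.1 kb before SMAD4 in the knockout clone, and 150.1 and 150.0 kb before it in the control clone, at the start of ME2, a mitochondrial malic enzyme gene. The ME2 start had 2 and 2 peaks in the knockout clone and 2 and 3 in the control clone, whereas most of the ME2 span lay inside the empty stretch. On the right, H3K27ac began again 110.1 and 109.9 kb beyond SMAD4 in the knockout clone, and 109.7 and 109.9 kb beyond it in the control clone, within the gene MEX3C, which encodes an RNA-binding protein. The peak at the left border had fold enrichments of 5.80 and 5.31 in the knockout clone and 6.27 and 4.69 in the control clone. The peak at the right border had 3.73 and 5.05 in the knockout clone and 7.81 and 4.26 in the control clone, and its rank ran from the 13.7 to the 71.3 percentile of the lists. Fold enrichment is the authors' peak height over local background, and it is compared here only within a list.

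**Figure D2:**
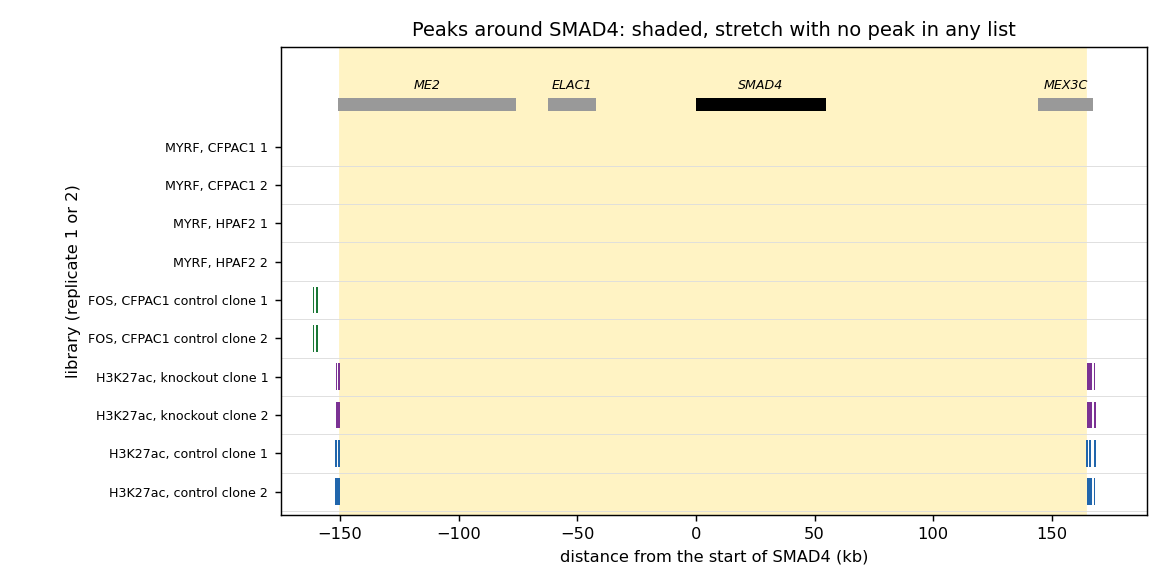
Peaks of the 10 libraries (1 row each, bars at their true width or a minimum drawing width) by distance in kb from the start of SMAD4, with gene spans on top. The shaded stretch of 314.6 kb holds SMAD4 and ELAC1 and no peak in any library, and H3K27ac of both clones ends at ME2 and MEX3C.

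Other lists were empty for still longer distances. The nearest FOS peak on the left lay 159.5 and 159.4 kb from SMAD4, and the stretch without FOS spanned 1441 kb. The nearest MYRF peak on the left lay 839.6 and 839.7 kb away in CFPAC1 and 839.4 and 839.3 kb away in HPAF2. On the right, the nearest MYRF peak lay 3682.1 and 1227.4 kb away in CFPAC1 and 1354.5 and 332.7 kb away in HPAF2. Chromosome 18 as a whole held 2133 and 2318 H3K27ac peaks in the knockout clone and 2401 and 2179 in the control clone. Of the 134375 stretches between H3K27ac regions in the genome, 0.966% were as long as the one at SMAD4, and 765 held 2 or more whole genes. Genes that lie wholly in such stretches made up 24.7% of all genes. A homozygous deletion in CFPAC1 and an intact stretch without acetylation would give the same empty lists, and they cannot be told apart from peaks. The 2 HPAF2 lists hold MYRF alone, so they say nothing about acetylation of SMAD4 in that line. Before the SMAD4 start, 68.4% of the 250 printed bases were G or C, and none of the 3 motifs matched.

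TGFBR2, the receptor upstream of SMAD4, was among the most acetylated windows and carried a MYRF site of both lines. Averaged over the 4 libraries, H3K27ac covered 22.4% of its window, at the 97.3 percentile of all genes, where the median gene had 4.06%. The shared MYRF site lay about 9 kb before the gene start, at chr3:30597245-30597618. Its fold enrichment was 7.51 and 10.1 in the 2 CFPAC1 libraries and 4.40 and 4.65 in the 2 HPAF2 libraries, which placed it at the 79.6 and 87.9 percentile of the CFPAC1 lists and at the 28.1 and 33.0 percentile of the HPAF2 lists. It ranked higher among the CFPAC1 peaks than among the HPAF2 peaks in both replicates, without a test of that difference.

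FOS and H3K27ac occupied the same TGFBR2 element. The FOS site over it had folds of 9.89 and 11.9, at the 88.0 and 91.7 percentile of the FOS lists, and its summits lay within 50 bp of the CFPAC1 MYRF summits, as the coordinates 30597424 and 30597451 for FOS and 30597407 and 30597451 for MYRF show. H3K27ac peaks overlapped the site in 2 of 2 knockout and 2 of 2 control libraries but left its middle free. The gap between the flanking acetylated peaks was 293 and 342 bp in the knockout clone, and 336 and 364 bp in the control clone, so it was present in all 4 libraries and of similar width in both clones.

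HPAF2 had 2 more MYRF sites, inside the TGFBR2 gene, at chr3:30625506-30625963 and chr3:30631245-30631570. The first had folds of 4.64 and 5.96 and the second 6.70 and 6.20 in HPAF2, and no MYRF peak overlapped either in CFPAC1. Neither had a FOS peak, but both were overlapped by H3K27ac in 2 of 2 knockout and 2 of 2 control libraries of CFPAC1. Each of the remaining 2 MYRF peaks of the window was in 1 HPAF2 library alone. One of them lay at the TGFBR2 start in replicate 2, with a fold of 3.57, and the other beyond the gene in replicate 1, with a fold of 5.42.

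At the TGFBR2 start itself, FOS had a site with folds of 7.88 and 7.51. A FOS site deeper in the gene, at chr3:30658652-30660040, had folds of 9.82 and 11.5, so FOS was strong both upstream and within the gene. The AP-1 motif matched at the second annotated TGFBR2 start, and this 29-base stretch shows it in capitals, because it lies at the edge of the FOS site.
TGFBR2 AP-1 match, chr3:30606584-30606612, plus strand: ttgaagttgagTGAGTCActcgcgcgcac
The match was inside the FOS peak of replicate 1 but outside that of replicate 2, and it lay 562 and 371 bp from the nearest FOS summits. It is therefore not at the point of highest FOS signal in either library.

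RNF43 carried 2 MYRF sites, and both were shared by the 2 cell lines. The first, at chr17:58387781-58388204, had folds of 4.73 and 3.56 in the CFPAC1 libraries and 4.24 and 5.14 in the HPAF2 libraries. The second, at chr17:58391383-58391822, had folds of 7.50 and 6.95 in the CFPAC1 libraries and 9.38 and 9.43 in the HPAF2 libraries. The second site ranked higher in every library, at the 79.6 and 74.3 percentile in CFPAC1 and the 85.0 and 85.1 percentile in HPAF2. Both lie within the gene, 25 to 30 kb after its first start in the direction of transcription.

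**Figure D3:**
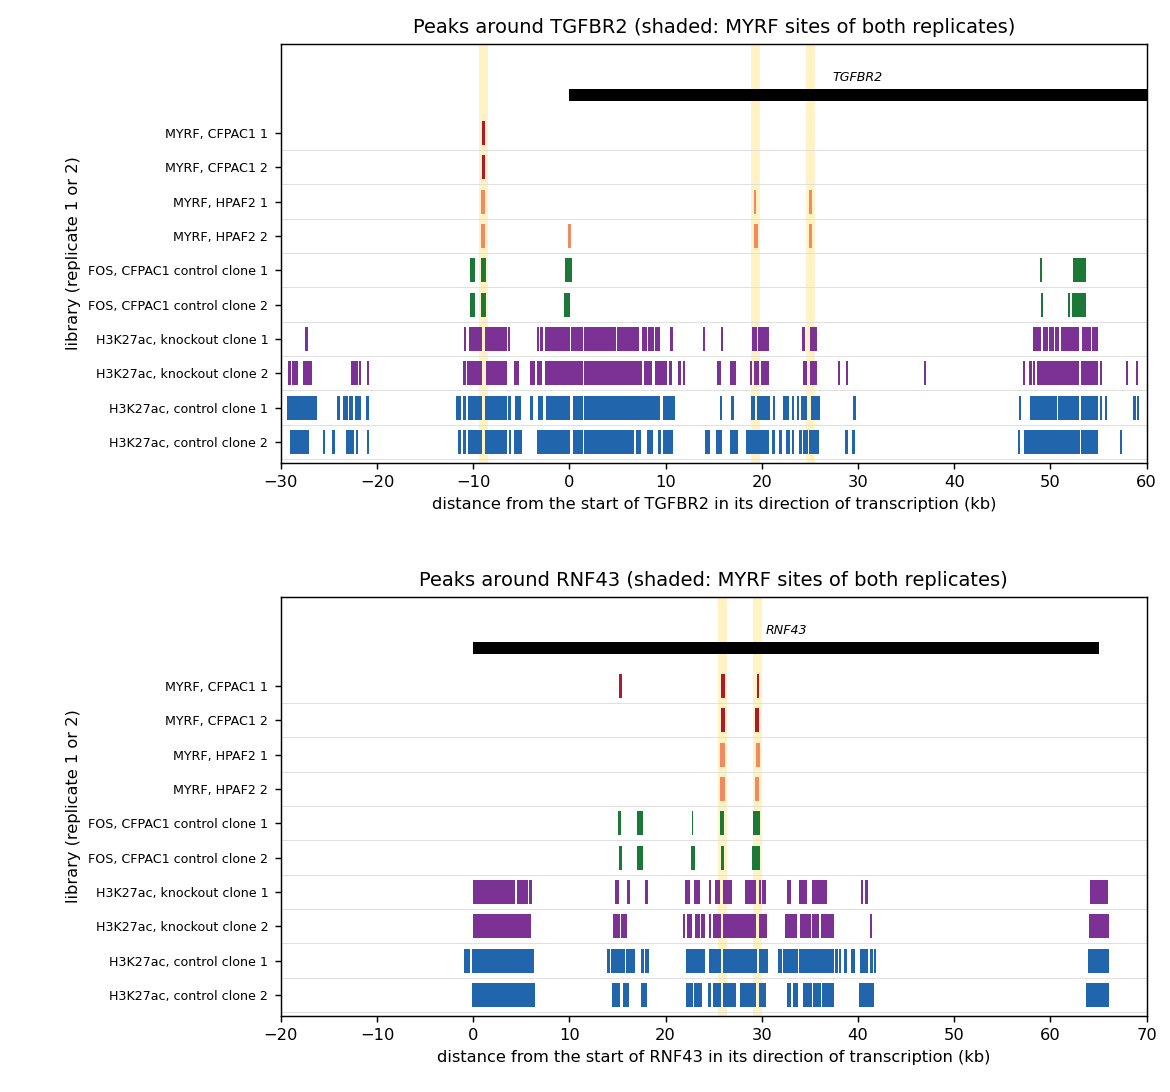
Peaks of the 10 libraries around TGFBR2 (top) and RNF43 (bottom) by distance in kb from the gene start in the direction of transcription, with the gene as a black bar and MYRF sites of both replicates shaded. TGFBR2 has 1 MYRF site in both lines and 2 in HPAF2, and both RNF43 sites are in both lines with FOS and H3K27ac around them.

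Both RNF43 sites coincided with FOS. The FOS folds were 5.08 and 6.03 at the first site and 4.37 and 4.76 at the second. With the TGFBR2 element, 3 of the 3 CFPAC1 MYRF sites of the members overlapped a FOS site, against 64.9% of all CFPAC1 MYRF sites, and 3 of 3 overlapped an HPAF2 MYRF site, against 46%. H3K27ac overlapped 3 of 3 in both knockout libraries, against 77.8%, and 3 of 3 in both control libraries, against 81%. With 3 sites, such counts describe these elements and no more.

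The middle of each RNF43 site was again free of H3K27ac in all 4 libraries. The gap at the first was 279 and 242 bp in the knockout clone and 215 and 270 bp in the control clone. The gap at the second was 312 and 223 bp in the knockout clone and 218 and 213 bp in the control clone. Counting acetylation only over the summit, 0 of the 3 MYRF sites had it in both knockout libraries, against 49.9% of all CFPAC1 MYRF sites, and 0 of 3 in both control libraries, against 54.1%.

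RNF43 had 3 further FOS sites and acetylated starts. The strongest, at chr17:58399906-58400528, had folds of 7.16 and 7.51. It was overlapped by H3K27ac in 0 of 2 knockout libraries and 2 of 2 control libraries, where the control peaks had folds of 4.93 and 4.79. Knockout replicate 1 had a peak with a fold of 4.72 that ended at 58399656, before the site and in the same acetylated region, so the region was not called lost. The first RNF43 start had H3K27ac within 1 kb in 4 of 4 libraries, with folds of 11.6 and 14.6 in the knockout clone and 14.3 and 18.0 in the control clone. The inner RNF43 start had weaker H3K27ac, with folds of 4.60 and 4.11 in the knockout clone and 4.05 and 4.39 in the control clone. The AP-1 match before it lay in no FOS peak and was 528 bp from the nearest FOS summit in both replicates. A MYRF peak near the inner start was found in CFPAC1 replicate 1 alone, with a fold of 3.51.

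CDKN2A was acetylated at 1 of its 2 starts. The distal start, used by the ARF transcript, had H3K27ac folds of 17.8 and 18.9 in the knockout clone and 16.8 and 18.6 in the control clone, which was the highest peak of the window in all 4 libraries. The proximal start, used by the p16INK4a transcript, had no H3K27ac peak within 1 kb in any of the 4 libraries. Its nearest peak lay 8925 and 8572 bp away in the knockout clone, and 2200 and 2172 bp away in the control clone.

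The nearer control peak is a small region, chr9:21972437-21972685, with folds of 3.13 and 3.84 in the control clone and no peak in the knockout clone. It was among the weakest peaks of the control lists, at the 6.31 and 20.6 percentile. The longest acetylated region of the window, 6646 bp, lay just inside the distal start, with top folds of 10.5 and 12.4 in the knockout clone and 13.8 and 6.10 in the control clone. Both CDKN2A promoters printed above were 66.8% G or C and held none of the 3 motifs, so they do not differ in these features. No MYRF peak lay in the window in either line. The window had 2 FOS sites, with folds of 4.37 and 5.57 at chr9:21919430-21919852 and 5.86 and 5.32 at chr9:22030114-22030636. Both lie outside CDKN2A, and the window also holds MTAP and CDKN2B.

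**Figure D4:**
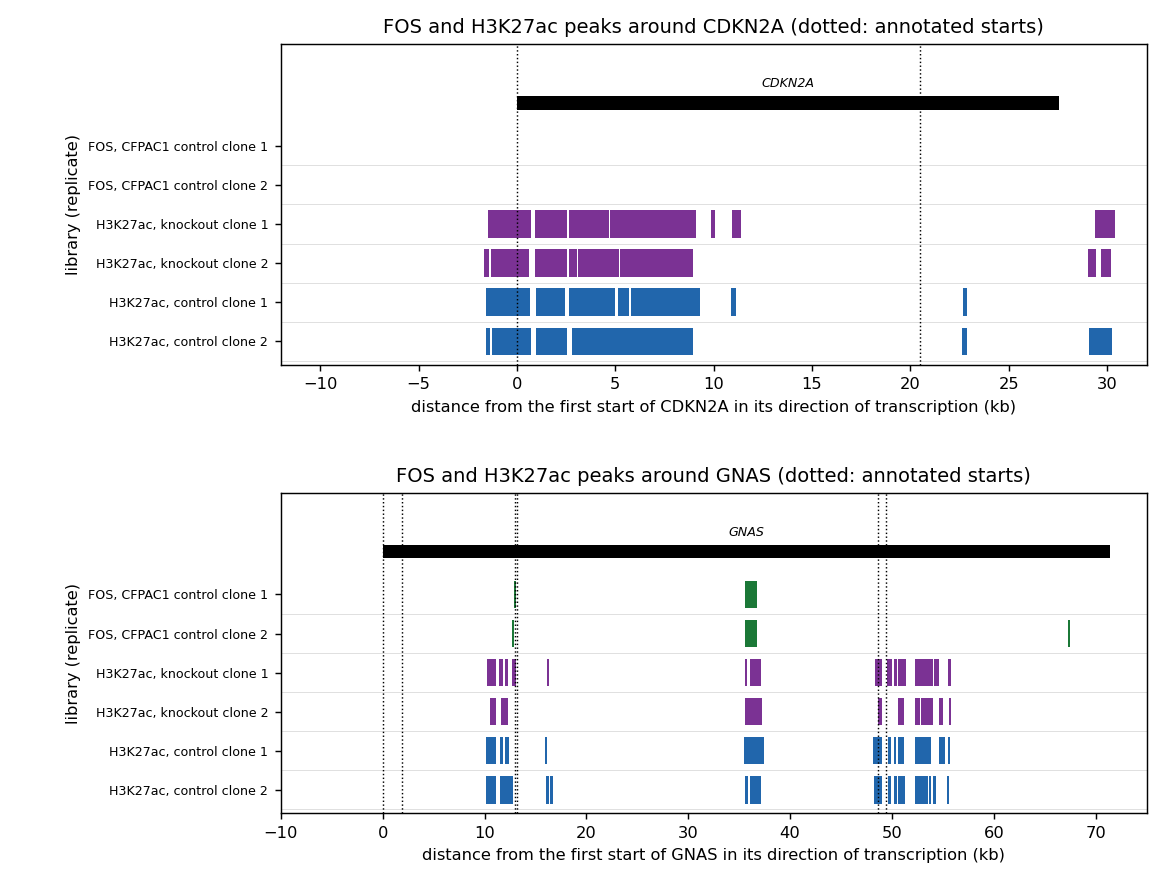
FOS and H3K27ac peaks of 6 CFPAC1 libraries around CDKN2A (top) and GNAS (bottom) by distance in kb from the first start in the direction of transcription, with dotted lines at annotated starts. H3K27ac covers the first CDKN2A start and not the second, and the first 2 GNAS starts have none while FOS peaks lie at the third start and between starts.

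MYC, the remaining cell cycle driver, had a broad acetylated block over the gene. The longest region, 6956 bp, covered the gene's start and most of its body, with top folds of 15.0 and 10.9 in the knockout clone and 16.0 and 19.6 in the control clone. FOS had 3 sites. The strongest, with folds of 9.72 and 8.20, had its replicate 1 summit 275 bp beyond the upper end of the gene span. A site about 1 kb before the lower end had folds of 2.66 and 5.29, and a site about 47 kb before it had folds of 6.27 and 6.50. FOS peaks of single libraries lay at the start or over the gene body, with 1 in replicate 1 and 3 in replicate 2 and folds from 2.50 to 4.01. No MYRF peak lay in the MYC window in either line.

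ARID1A and KDM6A, the chromatin regulators, had FOS and H3K27ac without MYRF. ARID1A had 4 FOS sites, all of middling strength, with folds from 4.77 to 5.89. H3K27ac within 1 kb of its start had folds of 21.8 and 19.2 in the knockout clone and 18.0 and 23.9 in the control clone. The highest H3K27ac peak in the ARID1A window lay beyond the gene, with folds of 22.6 and 21.2 in the knockout clone and 22.6 and 28.2 in the control clone.

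KDM6A had 4 FOS sites, and its start was acetylated in 4 of 4 libraries, with folds of 17.9 and 17.8 in the knockout clone and 17.9 and 19.6 in the control clone. A FOS site inside the gene had folds of 9.05 and 8.67, and one about 45 kb before its start had folds of 6.50 and 9.13. The KDM6A promoter holds both TGAGTCA and CACGTG, yet the nearest FOS summits were 29681 and 29771 bp from the AP-1 match. The match itself lay in 0 of 2 knockout and 0 of 2 control H3K27ac peak lists, in the gap between the peaks on either side of the start. Of the KDM6A window, 2.52% was covered by H3K27ac, at the 36.1 percentile of all genes, the lowest of the 7 acetylated members.

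GNAS had peaks at some of its 6 starts in the promoter table and not at others. The first 2 starts had no H3K27ac peak within 1 kb in any library, and the nearest lay 10260 and 10499 bp from the first start in the knockout clone and 10164 and 10175 bp in the control clone. The third start, whose promoter is printed above, had weak H3K27ac nearby, with folds of 6.10 and 5.05 in the knockout clone and 4.09 and 4.06 in the control clone. The start at 58888413 had an H3K27ac peak over it in 4 of 4 libraries. Its highest folds within 1 kb were 8.90 and 4.33 in the knockout clone and 8.22 and 7.48 in the control clone. The starts at 58852981 and 58889180 had H3K27ac within 1 kb in 4 of 4 libraries.

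FOS had a weak site at the third GNAS start, with folds of 3.92 and 3.38, at the 17.6 and 7.84 percentile of the FOS lists. The summit of replicate 2 lay 0 bp from the TGACTCA match, which means inside it, and that of replicate 1 lay 122 bp from it and 6 bp from the CACGTG match. The 2 replicates therefore placed the summit at different motifs of the same promoter. The strong FOS site of GNAS, with folds of 8.41 and 10.5, lay further inside the gene at chr20:58875284-58876517. It coincided with the longest H3K27ac region of the window, 2040 bp, with top folds of 11.8 and 10.5 in the knockout clone and 7.96 and 11.6 in the control clone. The highest H3K27ac peak lay downstream of all 6 starts in the promoter table, with folds of 20.3 and 13.1 in the knockout clone and 13.0 and 16.6 in the control clone. That table is not complete, as it lists no start of MYC. Whether this peak lies at another start of GNAS was not tested. No MYRF peak lay in the GNAS window in either line.

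Over the 8 genes there were 26 FOS sites. H3K27ac overlapped 23 of 26 in both knockout libraries, against 69.1% of all FOS sites, and 23 of 26 in both control libraries, against 71.4%. Counted over the summit alone, it covered 9 of 26 in the knockout clone, against 41.7%, and 12 of 26 in the control clone, against 45.5%. FOS sites that touch H3K27ac were thus common among the members, while the shares with an acetylated summit were lower and stood close to those of all FOS sites in the control clone and somewhat below them in the knockout clone.

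No tested member was called different in H3K27ac-covered length between the knockout and control clones. With 2 libraries each, this does not show that the clones were alike. Covered length is the number of base pairs under H3K27ac peaks in a gene window. At TGFBR2 it was 30.4 and 43.4 kb in the knockout clone, against 46.9 and 47.5 kb in the control clone. At RNF43 it was 18.2 and 25.3 kb in the knockout clone, against 30.1 and 26.0 kb in the control clone. Both genes thus had both knockout libraries below both control libraries, which was true of 26% of the 16708 gene windows tested.

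The other acetylated members overlapped between clones. CDKN2A had 21.4 and 16.6 kb in the knockout clone, against 19.7 and 20.3 kb in the control clone. ARID1A had 20.3 and 22.7 kb in the knockout clone, against 22.5 and 25.6 kb in the control clone. GNAS had 9.80 and 6.31 kb in the knockout clone, against 8.21 and 8.41 kb in the control clone. KDM6A had 8.18 and 9.54 kb in the knockout clone, against 9.27 and 7.22 kb in the control clone. MYC had 12.3 and 13.5 kb in the knockout clone, against 12.2 and 14.1 kb in the control clone. In 6 of the 7 acetylated members, all but ARID1A, the 2 knockout libraries differed from each other by more than the clone means did. This includes TGFBR2, with knockout libraries 13.0 kb apart and means that differed by -10.3 kb, and RNF43, with 7.13 kb and -6.30 kb. These lengths are unscaled, and the share of all gene windows with such a spread was not computed. The count therefore describes these members and no more.

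**Figure D5:**
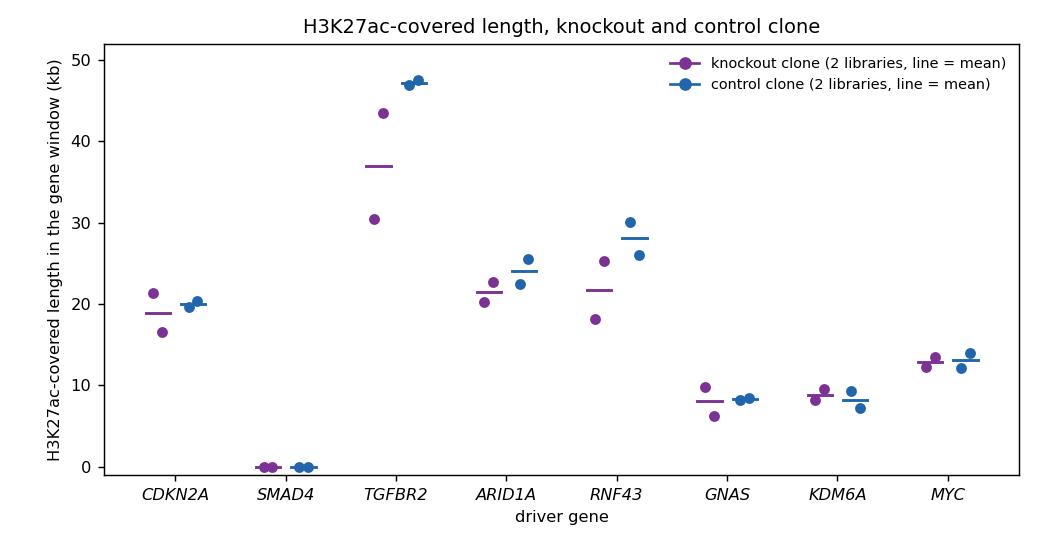
H3K27ac-covered length in kb of each driver-gene window, with a point for each of the 2 libraries of the knockout clone (left of each pair) and of the control clone (right), and a line at the mean. TGFBR2 has 30.4 and 43.4 kb in the knockout clone and 46.9 and 47.5 kb in the control clone, SMAD4 is at 0 in all 4 libraries, and 5 of the other genes overlap.

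In a limma fit of log2(covered bp + 500), scaled to each library's total covered length, 0% of windows passed an adjusted p of 0.05 in either direction. The same fit gave 787 windows at an unadjusted p under 0.05, and the median window differed by 0.05 on the log2 scale. Relative to control, the log2 difference of the knockout clone was -0.26 ± 0.17 (SE, n = 2 each) at TGFBR2 and -0.26 ± 0.17 at RNF43, each with a limma adjusted p of 0.988. It was 0.21 ± 0.16 at KDM6A, 0.09 ± 0.15 at MYC, 0.04 ± 0.24 at GNAS, 0.03 ± 0.18 at CDKN2A and -0.04 ± 0.15 at ARID1A, with limma adjusted p values from 0.988 to 0.997. SMAD4 had no coverage and was not tested. Scaling matters for the overlap: after it, TGFBR2 had 32.6 and 43.98 kb in the knockout clone and 43.92 and 47.0 kb in the control clone, so the clones overlapped. RNF43 after scaling had 19.5 and 25.67 kb in the knockout clone, against 28.2 and 25.72 kb in the control clone, an order shared by 11.2% of windows. KDM6A after scaling had 8.77 and 9.67 kb in the knockout clone, against 8.68 and 7.14 kb in the control clone, and 21.1% of windows likewise had both knockout libraries higher. The p-values measure the spread between libraries, which may be technical, since nothing in the labels ties the replicates to separate cultures.

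Counted as presence or absence, TGFBR2 had the most acetylated regions missing from the knockout clone. A region was called lost when both control libraries and no knockout library had it, and gained in the opposite case. Of all 134465 regions, 3.51% were lost and 1.7% gained. The members had 11 lost and 2 gained of 171 regions, and 65 of the 171 were in all 4 libraries, against 40.2% of all regions. TGFBR2 had 8 of 54 lost and 0 gained, ARID1A had 2 lost, CDKN2A had 1 lost, and KDM6A had 2 gained. Genes with a lost region in the window made up 21.9% of all genes, and genes with a gained one 15.3%.

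The lost TGFBR2 regions were short and weak. They measured from 258 to 716 bp, and their folds in the control clone ran from 2.51 to 5.12, none above the median of its list. The strongest, at chr3:30628554-30629269, had folds of 4.69 and 5.12 in the control clone. It lies about 22 kb into the gene, and it is 1 of 3 lost regions between the 2 MYRF sites found in HPAF2. When peaks within 500 bp were merged into 1 region, 0 of the 8 remained. At a -log10 q of at least 10 none of the 8 kept a peak, as their highest -log10 q was 7.13. The 3 TGFBR2 regions that counted as lost at that cutoff were therefore other regions. Both gained KDM6A regions lie within the gene and are small, 464 and 236 bp, with folds of 4.07 and 3.47 in the knockout clone for the first and 6.00 and 3.68 for the second.

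The other genes of the same pathways give the setting for the members. Of 82 companion genes in 7 lists, a MYRF site lay in the window of 23 in CFPAC1 and of 24 in HPAF2, and 15 had one in both lines, beside 16.6%, 16.6% and 9.99% of all genes. FOS sites lay in 63 of 82, beside 67.7%. H3K27ac sites lay in 79 of 82 in the knockout clone, beside 86.1%, and in 79 of 82 in the control clone, beside 86.3%. The counts of the single lists below are to be read against these shares, and with 10 to 15 genes a list they are descriptions. MYRF folds given below for companions are the highest in the gene's window in each library. Whether the peaks of both lines lie at the same site was not tested. Only MYCN, a paralogue of MYC, had no H3K27ac peak in any of the 4 libraries, which makes 1 of 82 companions, beside 10.2% of all genes.

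Within the TGF-beta pathway, 6 of 15 companions had a MYRF site in CFPAC1, 5 of 15 in HPAF2 and 4 of 15 in both lines, and 15 of 15 had H3K27ac in both clones. SMAD6, which inhibits the pathway, had MYRF folds of 46.8 and 51.9 in the CFPAC1 libraries and 18.0 and 20.0 in the HPAF2 ones. SMAD3, which is activated by the receptors, had 23.3 and 23.7 in the CFPAC1 libraries and 13.0 and 16.4 in the HPAF2 ones. Both carried MYRF peaks with higher folds than the TGFBR2 site in the same libraries, while SMAD4, their partner, had none. SMAD6 and SMAD3 were named for having the highest MYRF percentiles of their list, so this order follows in part from the choice.

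Among WNT receptor and destruction complex genes, 4 of 12 had a MYRF site in CFPAC1, 7 of 12 in HPAF2 and 3 of 12 in both lines. ZNRF3, the close relative of RNF43 with the same action on Frizzled, had folds of 15.3 and 12.9 in the CFPAC1 libraries and 6.24 and 7.50 in the HPAF2 ones. AXIN1, a scaffold of the destruction complex, had 7.03 and 4.47 in the CFPAC1 libraries and 7.15 and 7.39 in the HPAF2 ones. In both lines, the pair of ubiquitin ligases RNF43 and ZNRF3 therefore had MYRF sites in their windows.

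Of the G1 cell cycle genes, 3 of 12 had a MYRF site in CFPAC1 and 2 of 12 in both lines. These were CDKN1B, a kinase inhibitor, with 18.3 and 15.7 in the CFPAC1 libraries and 8.87 and 9.85 in the HPAF2 ones, and CCND1, the cyclin D1 gene, with 6.34 and 5.14 in the CFPAC1 libraries and 7.51 and 11.2 in the HPAF2 ones. Of the SWI/SNF subunits, 2 of 12 had MYRF in both lines, DPF2 and ARID1B, and ARID1B is the paralogue of ARID1A. Its folds were 5.69 and 4.39 in the CFPAC1 libraries and 6.30 and 6.77 in the HPAF2 ones.

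Of the histone methylation genes, 1 of 11 had MYRF in both lines, KMT2D, a histone H3 lysine 4 methyltransferase that works in a complex with KDM6A. Its folds were 6.27 and 6.74 in the CFPAC1 libraries and 8.34 and 6.35 in the HPAF2 ones. Of the MYC network, 1 of 10 had MYRF in both lines, the repressor MNT, and of the cAMP genes 2 of 10 did, PRKACB, a catalytic subunit of protein kinase A, and ADCY9, an adenylyl cyclase.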

How the data were processed

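The deposited files are MACS2 narrowPeak lists of 10 libraries. Peaks were called by MACS2 2.1.0.20150731 on GRCh38 (hg38) by the authors, who also ran Bowtie2 2.2.6, SAMtools and Trimmomatic 0.38, per the submitters' processing notes. Each deposited peak has a fold enrichment (a ratio over local background), a -log10 p, a -log10 q and a score, and the lowest -log10 q lay just over 1.30. The labels do not say which control served for the CFPAC1 peaks. Folds were therefore read within each list, and comparisons between lists rest on presence and covered length. An HPAF2 input was not analysed here. Depth is unknown, and a share of 0 has no limit.

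Gene spans came from RefSeq (GRCh38.p14). Covered length was tested by limma 3.58.1 in R 4.3.3 on log2(bp + 500), for windows with a mean of at least 1000 bp, with Benjamini-Hochberg adjustment. On simulated data with 16708 windows, 100 of 100 windows changed by 1 on the log2 scale and 100 of 100 changed by 2 were recovered, with 9 false calls. The simulation gave windows of similar mean the same spread and changed only well-covered windows. It therefore checks that the fit runs as intended and does not give the recovery to be had in the real data. Overlaps were checked against bedtools 2.31.1 in 90 list pairs and were equal in 90. Python 3.11.15, numpy 2.4.6, pandas 2.3.3 and matplotlib 3.10.9 were used. The members, lists, tests and alternatives were chosen with earlier results of these data known. Named companions are up to 2 per list with MYRF in both lines and the highest percentile. Replicate numbers were not taken to pair libraries.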

Additional observations from a re-analysis of the deposited data

How the results depend on the processing

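Counts of members with a site kept to within 1.5 times under every alternative except one: in gene spans alone, 1 member had MYRF in CFPAC1. The share of all genes moved more. For MYRF in CFPAC1 it was 5.48% in gene spans alone, 7.52% at a -log10 q of at least 10 and 25.1% with 100 kb each side. FOS sites lay in 5 of 8 members in gene spans alone, against 30.0% of all genes, and in 5 of 8 at that q, against 43.8%. The MYRF sites of HPAF2 alone numbered 1 at a -log10 q of at least 10, and those of CFPAC1 alone 0 to 1 when a replicate was left out. With H3K27ac required over the summit, 0 MYRF sites in each clone and 9 FOS sites in the knockout clone and 12 in the control clone counted as acetylated. At a -log10 q of at least 10, 6 FOS sites did in each clone, of 10 left. The SMAD4 stretch then measured 315.6 kb.

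Lost regions of the members numbered 2 with peaks merged within 500 bp and 5 at a -log10 q of at least 10, and 39 to 57 when a replicate was left out. Gained regions numbered 0 at that q and 21 to 25 when a replicate was left out. With 1 library a clone, 24.2% and 34.8% of member regions were lost, against 21.4% and 27.9% of all regions. Gained regions then made up 15.5% and 12.8% of member regions, against 20.6% and 15.9% of all regions. With merged peaks 2.47% of member regions were lost, against 2.95%, and 2.47% gained, against 1.59%. At the stricter q 7.46% were lost, against 3.79%, and 0% gained, against 1.17%.

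Gene windows called by limma numbered 0, and 21 without the filter and 0 to 101 when a library was left out, the highest without knockout replicate 2 and 13 without knockout replicate 1. There the lone library is assumed to vary like the others. The fit with a replicate block called 11 windows. Deviations of the libraries numbered 1 in the 2 clones had a correlation of -0.198 over 16708 windows. That value does not settle whether the replicate numbers pair the libraries. The crossed pairing, chosen after seeing the data, called 0 windows. No member was called under any of these.

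Without scaling the median window moved to -0.06, against 0.05, so unscaled differences sit lower. Uncalled differences changed sign to -0.086 for CDKN2A, -0.073 for GNAS and -0.021 for MYC without scaling. By number of peaks they were -0.16, -0.012 and -0.47 for the same genes. They were -0.12 for TGFBR2, -0.057 for RNF43, -0.081 for ARID1A and 0.48 for KDM6A, which kept their sign but moved by over 1.5 times. Without scaling, ARID1A at -0.16 and KDM6A at 0.11 did likewise. GNAS was at -0.083 in its span alone, and MYC at -0.087 at the stricter q. Leaving out a library gave -0.19 to 0.24 for CDKN2A, -0.17 to 0.086 for ARID1A, -0.30 to 0.37 for GNAS, -0.049 to 0.23 for MYC, 0.081 to 0.35 for KDM6A, -0.47 to -0.05 for TGFBR2 and -0.46 to -0.07 for RNF43. The cause of these changes was not tested. Library number and unknown depth limit all of these comparisons.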
